A study of Homo sapiens with 9 samples.

Results

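Gene expression was compared between Huh7-R-A7, a sorafenib-resistant clone, and Huh7-R, the resistant pool from which that clone was picked. The comparison rested on 6 of the 9 arrays of the series, chosen by their titles, with 3 arrays of Huh7-R-A7, 3 of Huh7-R and the replicate numbers 1, 2 and 3 in each. Huh7 is a human hepatocellular carcinoma cell line, and sorafenib is a kinase inhibitor that blocks RAF kinases and growth factor receptors and is given for liver cancer. Both resistant groups came from sensitive Huh7 cells exposed once a week for 6 weeks to 10 µM sorafenib for 4 h and then carried in drug at up to 6 µM, and sorafenib was left out of the medium for 1 week before RNA was taken. Huh7-R-A7 is thus 1 clone of 1 selected pool, and both groups share the whole drug history. The other 3 arrays, of the sensitive parental cells (Huh7-S), had no such exposure and are given for orientation. The descriptions of clone arrays 2 and 3 each name a different clone on their first line and A7 on the second, and the titles, which all say A7, were followed. Nothing in the labels says that a replicate is a separate culture, although the methods call the replicates biological, so p-values here measure the spread between these arrays.

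A drug-selected pool can hold many lineages side by side, and a clone starts from a single founding cell. RNA from a pool is an average over those lineages. A gene can therefore be high in a clone and low in its pool, or the reverse, without any further exposure to drug. Neighbouring genes can shift together in RNA through the copy number of their segment, its chromatin or regulators they share. DNA was not measured, so these routes cannot be told apart here.

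Values are signal on the log2 scale, where a difference of 1 is a 2-fold change, and every difference below is Huh7-R-A7 minus Huh7-R. A gene passed when its Benjamini-Hochberg adjusted p was below 0.05 in a limma fit on all 9 arrays. Of 9784 genes, 402 were higher in Huh7-R-A7 (4.11%) and 442 were lower (4.52%), or 8.63% together. At an unadjusted p below 0.05 these counts were 1112 and 1115. The change was at least 2-fold for 51 of the higher genes and 54 of the lower genes. The study's methods set stricter limits, namely an unadjusted p under 0.0001 together with a ratio over 3 or under 0.25, and by these 8 genes were higher (0.0818%) and 7 were lower (0.0715%). The 3 clone arrays lay wholly above or below the 3 pool arrays in 3073 genes (31.4%), of which 1466 were higher (15%) and 1607 were lower (16.4%).

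Arrays of the same number moved together in both resistant groups. The deviations of same-numbered clone and pool arrays from their group means correlated across genes at 0.6, 0.49 and 0.42, against −0.46 to 0.18 for unlike numbers. The fit on the 6 resistant arrays with replicate number as a block, called the paired fit below, passed 878 genes as higher (8.97%) and 945 as lower (9.66%), or 18.6% together. In all, 777 genes passed in both fits in the same direction, 67 only on 9 arrays and 1046 only in the paired fit. Huh7-S array 1 differed from the other two sensitive arrays in liver and metal-response genes given below, and the median SD over genes was 0.0848 in Huh7-R-A7, 0.0931 in Huh7-R and 0.127 in Huh7-S. Without Huh7-S array 1, 606 genes were higher (6.19%) and 724 were lower (7.4%). Without the resistant arrays numbered 1 the shares were 4.1% and 3.07%, and on the 6 resistant arrays alone without a block 5.42% and 6.42%. Counts of list members given below for the paired fit or for these settings are to be read beside the shares of all genes in the same setting. Genes named below that passed only in the paired fit are marked as such and were chosen after their values were seen.

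The labelled cell type was checked against 15 hepatoma markers, of which 13 were measured. The albumin gene ALB read 14.66, 15.73 and 15.82 in Huh7-R-A7, against 14.87, 15.16 and 15.16 in Huh7-R, and the keratin KRT18 read 16.1 to 16.2 on all 6 arrays. Neither passed between the groups (adjusted p = 0.616 and 0.906). Over the 13 markers the median difference was −0.47, with 0 higher and 1 lower on 9 arrays, which was AFP, and 1 and 4 in the paired fit. GPC3, FGB and FGG differed by −1.12, −0.71 and −1.26 and passed only when paired. Of the markers of other cell types, 1 of 10 stromal, 2 of 11 blood and macrophage, 1 of 9 endothelial and 3 of 8 cholangiocyte genes were measured. Among these, the endothelial gene ESAM was higher in the clone by 0.44 at the noise limit of log2 6, and the biliary factor SOX9 was lower by 0.56. The 2 blood and macrophage markers ran in opposite directions and passed only in the paired fit. CD68 read 13.2, 13.52 and 13.46 in Huh7-R-A7, against 12.73, 13.28 and 13.19 in Huh7-R (log2 difference 0.33, paired adjusted p = 0.0478). The lysozyme gene LYZ read 6.69, 7.26 and 7.45 in Huh7-R-A7, against 7.64, 8.3 and 8.21 in Huh7-R, with no overlap (log2 difference −0.92, paired adjusted p = 0.0124). The part of other cells in the results was not tested.

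MAGEC2 was the gene with the largest rise. This X-linked cancer-testis antigen, silent in most adult tissues outside the testis, read 11.54, 11.67 and 11.76 in Huh7-R-A7, against 7.72, 7.72 and 7.69 in Huh7-R and 5.43, 5.43 and 5.91 in Huh7-S. Every clone array lay above every pool array, by 15.4-fold (log2 difference 3.94, SE 0.13, adjusted p = 1.07e-05). MAGEB2, another X-linked antigen of the same family, ran the other way. Its signal was 6.16, 5.6 and 5.83 in Huh7-R-A7, at the noise limit, against 9.24, 9.29 and 9.06 in Huh7-R and 6.42, 6.35 and 6.34 in Huh7-S, at least 8.83-fold lower in the clone (log2 difference −3.33, SE 0.13, adjusted p = 2.4e-05). Of the 45 cancer-testis genes listed, 3 were measured, 1 rose and 1 fell.

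The next largest rises were those of ULBP3 and ABCC2. ULBP3, a stress ligand seen by natural killer cells through NKG2D, read 8.55, 8.08 and 8.06 in Huh7-R-A7, against 5.98 on each of the 3 Huh7-R arrays, at least 4.7-fold higher (adjusted p = 7.51e-05). ABCC2, the canalicular exporter of drug and bilirubin conjugates, read 12.08, 12.29 and 12.26 in Huh7-R-A7, against 9.96, 10.13 and 10.07 in Huh7-R and 10.96, 11.37 and 11.32 in Huh7-S (log2 difference 2.16, SE 0.12, adjusted p = 8.1e-05). For ABCC2 the clone thus lay above the sensitive cells and the pool below them. TNC, the matrix glycoprotein tenascin C, was 3.94-fold higher in the clone, at 10.74, 10.09 and 10.02 against 8.07, 8.42 and 8.42 in Huh7-R (adjusted p = 0.00118). VSIG1, an adhesion protein of the stomach epithelium, was 3.85-fold higher, and the thyroid hormone activating enzyme DIO2 was 3.1-fold higher.

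In other rises the clone lay nearer to the sensitive cells than the pool did. NUP210, a nuclear pore membrane protein, read 8.4, 8.41 and 8.41 in Huh7-R-A7, against 6.76, 6.6 and 6.49 in Huh7-R, while Huh7-S read 9.8, 9.69 and 9.46 (log2 difference 1.79, adjusted p = 8.82e-05). The ubiquitin ligase gene RNF130 averaged 7.0 in Huh7-R-A7 and 5.36 in Huh7-R, with Huh7-S at 7.08. The zinc finger gene ZNF330 averaged 9.85 in Huh7-R-A7 and 8.26 in Huh7-R, with Huh7-S at 10.0. In all 3 genes the 3 clone arrays lay above the 3 pool arrays. The remaining rises among the 15 largest were NRK, MYL9, CYP2B6, EFEMP1, STAM and SLFN5, at 1.54 to 1.68 on the log2 scale, and for NRK and SLFN5 the pool was below the noise limit.

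**Figure D1:**
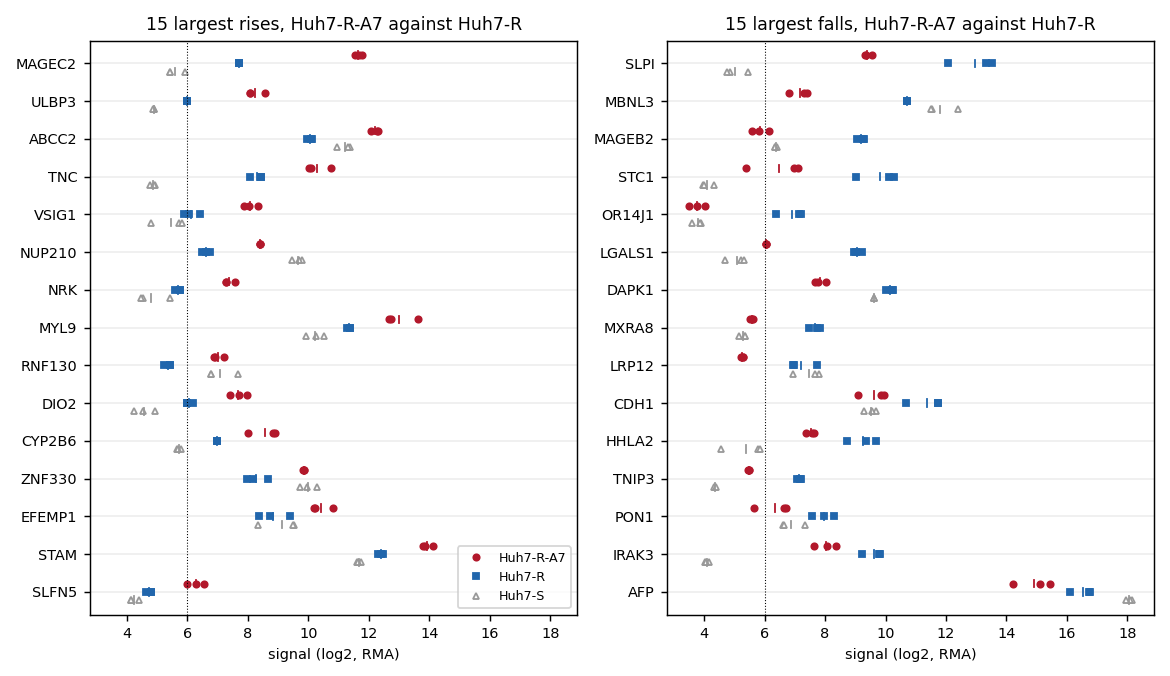
Signal (log2, x axis) of the 15 largest rises (left) and 15 largest falls (right), chosen among genes that passed on 9 arrays and whose clone and pool arrays did not overlap. Each row is 1 gene, each symbol 1 array, short bars are group means and the dotted line is the noise limit of log2 6; MAGEC2 and SLPI stand at the top, and Huh7-S (open triangles) lies on either side of the pool depending on the gene.

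The falls were as large as the rises. SLPI, a secreted inhibitor of neutrophil elastase, read 9.31, 9.34 and 9.54 in Huh7-R-A7, against 12.06, 13.52 and 13.33 in Huh7-R and 5.45, 4.86 and 4.76 in Huh7-S (11.9-fold lower in the clone, adjusted p = 0.00152). All 3 clone arrays lay below the pool and above the sensitive cells. MBNL3, an X-linked splicing regulator of the muscleblind family, read 6.8, 7.29 and 7.41 in Huh7-R-A7, against 10.72, 10.72 and 10.71 in Huh7-R and 12.39, 11.53 and 11.49 in Huh7-S (11.7-fold lower, adjusted p = 0.000276). LGALS1, the glycan-binding protein galectin-1, read 6.05 on each of the 3 clone arrays, against 9.02, 9.21 and 8.97 in Huh7-R (8.07-fold lower, adjusted p = 6.93e-05). Its level in the clone was close to the noise limit.

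In several of the falls the clone lay at or near the sensitive level. The olfactory receptor gene OR14J1 read 3.51 to 4.02 in Huh7-R-A7, against 6.37 to 7.19 in Huh7-R and 3.6 to 3.89 in Huh7-S. The matrix remodelling gene MXRA8 read 5.52 to 5.63 in Huh7-R-A7, against 7.48 to 7.82 in Huh7-R and 5.16 to 5.35 in Huh7-S. For OR14J1 and MXRA8 the clone and Huh7-S were below the noise limit of log2 6, so their likeness there is not one of measured expression. CDH1, the epithelial adhesion protein E-cadherin, read 9.09, 9.84 and 9.96 in Huh7-R-A7, against 10.69, 11.74 and 11.72 in Huh7-R and 9.28, 9.68 and 9.56 in Huh7-S (3.37-fold lower, adjusted p = 0.0188). For these 3 genes the pool was the group that stood apart. DAPK1, a calmodulin-regulated kinase of cell death, was instead lowest in the clone, at 7.68, 7.78 and 8.03 against 10.03, 10.2 and 10.26 in Huh7-R and 9.61 on each Huh7-S array (5.04-fold lower, adjusted p = 2.4e-05). AFP, the fetal plasma protein used as a marker of hepatocellular carcinoma, averaged 14.92 ± 0.64 in Huh7-R-A7 and 16.52 ± 0.37 in Huh7-R (SD, n = 3 each), with Huh7-S at 18.07 ± 0.11, so it was lowest in the clone as well (log2 difference −1.6, adjusted p = 0.021). The immune checkpoint ligand HHLA2 and PON1, a paraoxonase carried on high-density lipoprotein, fell by 1.73 and 1.61. The lipoprotein receptor gene LRP12 was below the noise limit in the clone and at least 2.32-fold lower.

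Genes induced under low oxygen by the HIF transcription factors were lower in Huh7-R-A7 as a group. HIF is stable when oxygen is short and raises glucose uptake, glycolysis, mitochondrial turnover and vessel growth. Of 25 measured hypoxia targets, 0 were higher and 6 were lower on 9 arrays, 0 and 19 in the paired fit, and the median difference was −0.51, against 0.005 over all genes. The pair medians were −0.57, −0.52 and −0.48. The arrays numbered 1 were low for this list in both resistant groups, by a median of 0.32 in Huh7-R-A7 and 0.39 in Huh7-R below the mean of numbers 2 and 3. Without them 10 members were lower and 0 were higher, where 3.07% of all genes were lower.

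STC1, a secreted calcium- and phosphate-regulating glycoprotein, led the hypoxia targets. It read 5.37, 6.99 and 7.11 in Huh7-R-A7, against 9.01, 10.29 and 10.13 in Huh7-R and 3.96, 4.33 and 4 in Huh7-S (9.98-fold lower in the clone, SE 0.51 on the log2 scale, adjusted p = 0.00744). PDK1, the kinase that closes off pyruvate dehydrogenase, read 7.9, 8.43 and 8.43 in Huh7-R-A7, against 9.09, 10.07 and 10.33 in Huh7-R (2.98-fold lower, adjusted p = 0.0378). SLC2A1, the glucose transporter GLUT1, read 10.69, 10.87 and 10.87 in Huh7-R-A7, against 11.6, 12.15 and 12.03 in Huh7-R (2.17-fold lower, adjusted p = 0.00741). In each of the 3 genes no clone array reached the lowest pool array, and number 1 was the lowest in both groups. The mitophagy receptor BNIP3L also fell, by 0.86, and the vasodilator peptide gene ADM by 0.28. ADM lies in a lowered stretch of chromosome 11 whose median was −0.28 as well, and PDK1 in one of chromosome 2, both described below. In all, 3 of the 25 measured hypoxia targets lie in shifted stretches. BNIP3, NDRG1 and DDIT4 differed by −1.21, −1.5 and −1.02 and passed only in the paired fit (adjusted p = 0.0107, 0.016 and 0.0107).

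Glycolytic enzymes moved less. Of 17 measured, 0 were higher and 4 were lower on 9 arrays, 0 and 7 in the paired fit, with a median of −0.18. PGK1, which makes ATP from 1,3-bisphosphoglycerate, read 12.22, 12.53 and 12.49 in Huh7-R-A7, against 12.97, 13.7 and 13.65 in Huh7-R (2.04-fold lower, adjusted p = 0.0302). LDHA, GPI and ENO1 fell by 0.54, 0.53 and 0.37, and ENO1 did not pass in the paired fit (adjusted p = 0.0994). LDHA lies in the same lowered stretch of chromosome 11 as ADM. The oxygen-regulated subunit gene HIF1A itself read 16.19, 16.13 and 16.13 in Huh7-R-A7, against 16.8, 16.35 and 16.46 in Huh7-R, and did not pass in either fit (adjusted p = 0.208 and 0.0674 paired).

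The core of the HIF binding element is ACGTG, which is also contained in the E-box CACGTG read by other factors. It was searched on both strands in the 250 bases before the start of each gene, in the RefSeq promoters of GRCh38.p14. Of the 27 hypoxia and glycolysis genes that passed as lower in either fit, 23 had a promoter there. Of these, 14 held the motif in any promoter (60.9%), against 29.1% of the 7499 measured genes with a promoter. The share was 18.5% when all 35116 promoters were counted singly. Because the 27 genes came from lists of hypoxia targets and glycolytic enzymes, the higher share is not a result about the clone. List members that did not fall were not counted for comparison. A match is a description of these letters and not evidence of binding. The upstream bases of 3 genes with a single promoter, a match and a difference below −1 are shown, with the motif in capitals, since more members of the hypoxia list passed as lower than of any other list. Lines run 5′ to 3′ on the gene's strand, for BNIP3 (chr10:131981924-131982173, minus strand), PGK1 (chrX:78103998-78104247, plus strand) and DDIT4 (chr10:72273674-72273923, plus strand).
BNIP3: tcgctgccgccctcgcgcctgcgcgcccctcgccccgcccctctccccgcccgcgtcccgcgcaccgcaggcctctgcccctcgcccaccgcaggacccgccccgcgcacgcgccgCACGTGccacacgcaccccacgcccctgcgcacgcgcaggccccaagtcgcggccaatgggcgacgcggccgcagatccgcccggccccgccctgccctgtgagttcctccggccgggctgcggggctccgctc
PGK1: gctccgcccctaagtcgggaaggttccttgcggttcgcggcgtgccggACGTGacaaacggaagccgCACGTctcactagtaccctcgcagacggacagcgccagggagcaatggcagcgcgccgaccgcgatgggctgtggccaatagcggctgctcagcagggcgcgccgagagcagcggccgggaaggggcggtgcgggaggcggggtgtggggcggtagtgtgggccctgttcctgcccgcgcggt
DDIT4: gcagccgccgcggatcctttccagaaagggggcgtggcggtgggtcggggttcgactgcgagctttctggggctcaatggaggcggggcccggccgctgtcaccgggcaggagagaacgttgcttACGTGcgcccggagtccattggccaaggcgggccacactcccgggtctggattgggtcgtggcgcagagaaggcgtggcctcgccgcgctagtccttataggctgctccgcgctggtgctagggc
PGK1 held the motif once on each strand at separate places, DDIT4 held it once, and in BNIP3 both strands matched in a single E-box.

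Complement and acute phase genes, which the liver secretes into plasma as part of innate defence, were also lower in the clone. Of 16 measured, 0 were higher and 3 were lower on 9 arrays, 0 and 12 in the paired fit, with a median of −0.83 and pair medians of −0.84, −0.96 and −0.89. Probe sets that list SAA1 or SAA2 beside another symbol were not among the 16 and are given with the flagged results. CFI, the protease that inactivates complement fragments, read 9.53, 10.28 and 10.35 in Huh7-R-A7, against 10.92, 11.8 and 11.85 in Huh7-R (2.77-fold lower, adjusted p = 0.0371). The complement protease C1S was below the noise limit in the clone and at least 1.72-fold lower. C4BPB, a chain of the C4-binding protein, fell by 0.69 but did not pass in the paired fit (adjusted p = 0.0621). C3, the central complement protein, read 11.53, 12.73 and 12.81 in Huh7-R-A7, against 14.24, 15.27 and 15.19 in Huh7-R (log2 difference −2.54). C3 did not pass on 9 arrays (adjusted p = 0.329), where Huh7-S read 12.73, 7.27 and 7.12, and passed in the paired fit (adjusted p = 0.0089). CFB and the haemoglobin scavenger HP behaved alike, with differences of −1.77 and −1.81 that passed only when paired (adjusted p = 0.0089 and 0.0318).

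For these genes the arrays numbered 1 lay below the mean of numbers 2 and 3 by a median over the list of 0.74 in Huh7-R-A7 and 0.59 in Huh7-R, though C4BPB was highest on number 1 among the clone arrays. Without them 3 members were lower (18.8%), and without Huh7-S array 1 there were 6 (37.5%), against 3.07% and 7.4% of all genes. Among plasma carriers and inhibitors 0 of 15 passed on 9 arrays, and 1 rose and 5 fell when paired, with the blood pressure precursor AGT at −1.79. Coagulation genes gave 0 of 17 on 9 arrays, and 1 higher and 7 lower when paired, among them the fibrinogen chains FGB (−0.71) and FGG (−1.26) and kininogen KNG1 (−1.48). ALB and TTR did not follow, at 0.34 and 0.69, and TTR was higher in the paired fit (adjusted p = 0.0446).

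**Figure D2:**
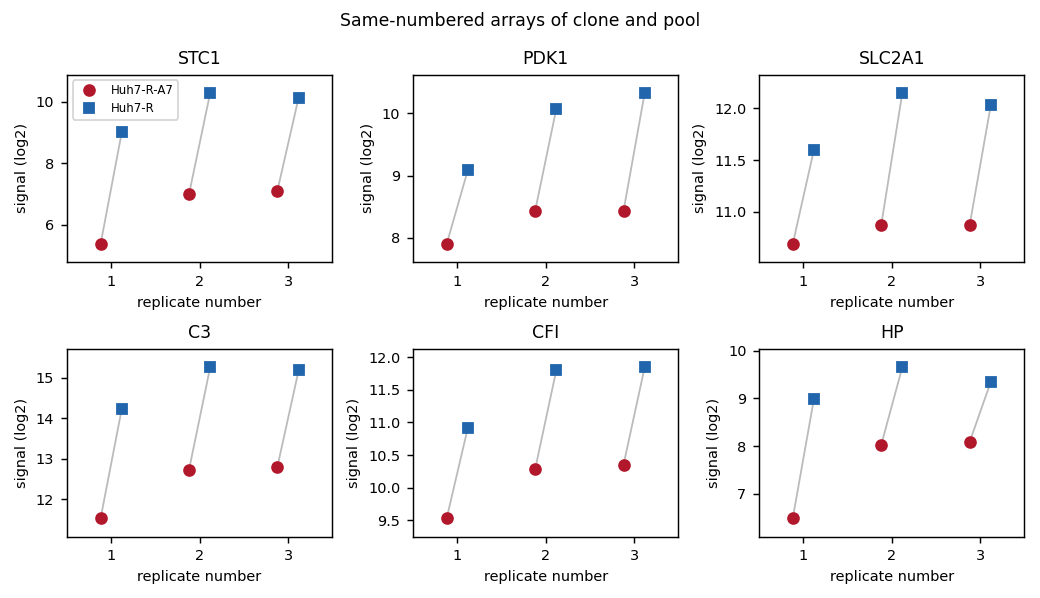
Signal (log2, y axis) of 3 hypoxia targets (top) and 3 complement and acute phase genes (bottom) by replicate number (x axis), with Huh7-R-A7 as circles, Huh7-R as squares and a line joining arrays of 1 number. The clone was below the pool in every pair, and number 1 was the lowest of its group in all 6 genes.

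Transcription factors that hold the hepatocyte state showed 3 of 17 lower and 0 higher on 9 arrays (6 and 0 when paired, median −0.29). NR5A2, a nuclear receptor of bile acid and cholesterol genes, fell by 0.67, the secretory factor XBP1 by 0.47 and the acute phase factor CEBPB by 0.34. Huh7-R read 11.13 to 11.34 for NR5A2, close to Huh7-S at 11.16 to 11.45, and Huh7-R-A7 read 10.44 to 10.7.

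NF-kB drives inflammatory chemokines and its own inhibitors. In this list of 29 measured genes 1 was higher and 4 were lower on 9 arrays, 2 and 11 in the paired fit, with a median of −0.23. TNIP3, an inhibitor of NF-kB activation, read 5.48, 5.48 and 5.45 in Huh7-R-A7, below the noise limit, against 7.21, 7.07 and 7.18 in Huh7-R (at least 2.22-fold lower, adjusted p = 1.07e-05). IRAK3, a brake on Toll-like receptor signalling, read 7.64, 8.06 and 8.36 in Huh7-R-A7, against 9.23, 9.8 and 9.82 in Huh7-R and 4.02 to 4.17 in Huh7-S (3.03-fold lower, adjusted p = 0.00423). The clone thus held part of the pool's excess over sensitive cells. NFKBIZ and CXCL2 fell by 0.82 and 0.47, and the chemokines CCL20, CXCL1, CXCL5 and CXCL6 differed by −1.24, −1.18, −1.21 and −1.19, each passing only in the paired fit. Without Huh7-S array 1 this list had 11 lower members (37.9%) and 1 higher (3.45%), against 7.4% and 6.19% of all genes. The cytokine IL1A rose, to 6.21, 6.49 and 6.58 in Huh7-R-A7, against 4.89 to 4.93 in Huh7-R (at least 1.35-fold higher, adjusted p = 0.00164).

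Interferon response genes split, with 2 of 24 higher and 4 lower on 9 arrays (5 and 5 when paired) and a median of 0. The membrane restriction factors IFITM2 and IFITM3 fell by 1.21 and 1.09. The RNA sensor RIGI was below the noise limit in the clone and at least 1.56-fold lower. The guanylate-binding protein GBP3 rose by 0.52, with 9.58 to 9.73 in Huh7-R-A7 and 8.98 to 9.23 in Huh7-R. IFITM2 and IFITM3 lie in a lowered stretch of chromosome 11 and RIGI in one of chromosome 9, described below. IFITM2 and IFITM3 are near-identical in sequence, so their signals may not be separate.

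Matrix and mesenchymal genes went both ways. Of 27 measured, 7 were higher and 2 were lower on 9 arrays (9 and 5 when paired), and the median was 0.2. FBN2, a fibrillin of elastic microfibrils, read 12.89, 12.67 and 12.67 in Huh7-R-A7, against 11.63, 11.58 and 11.58 in Huh7-R and 4.39 to 4.61 in Huh7-S (log2 difference 1.14, adjusted p = 0.000275). MYL9, a myosin light chain of contractile cells, read 13.62, 12.72 and 12.65 in Huh7-R-A7, against 11.28, 11.37 and 11.37 in Huh7-R (3.15-fold higher, adjusted p = 0.00823). The intermediate filament gene VIM rose by 0.66 and ZEB1, a repressor of CDH1, by 0.48, while the basement membrane chain COL4A6, below the noise limit in the pool, was at least 1.05-fold higher. VIM and ZEB1 lie in a raised stretch of chromosome 10 whose median was 0.39, described below. COL1A2, a chain of type I collagen, fell by 1.57, beside LGALS1. THBS1, an activator of latent TGF-beta, read 13, 11.32 and 11.03 in Huh7-R-A7, against 10.66, 9.4 and 9.36 in Huh7-R, and its difference of 1.98 passed only when paired (adjusted p = 0.0126). Without the arrays numbered 1 the list gave 7 higher and 3 lower.

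Epithelial junction genes had 1 of 24 higher and 3 lower (1 and 7 when paired, and 1 and 7 without Huh7-S array 1). The lower share was 29.2% in both of these alternatives, against 9.66% and 7.4% of all genes. Beside CDH1, ESRP2, a splicing regulator of epithelial isoforms, fell by 0.58. The tight junction scaffold TJP3 was below the noise limit in the clone and at least 1.19-fold lower. The junction genes JUP and DSP differed by −0.83 and −0.76 and passed only when paired. Among integrins, laminins and proteases 2 of 23 were higher and 3 lower on 9 arrays. The counts were 4 and 6 when paired (17.4% and 26.1%), and 4 and 4 without Huh7-S array 1 (17.4% each). The matrix protease ADAMTS9 and the integrin chain ITGB1 rose by 0.61 and 0.41. The collagen receptor ITGA1, the protease inhibitor TIMP1 and the lysosomal protease CTSD fell by 1.12, 0.68 and 0.81. ITGB1 lies in the same raised stretch of chromosome 10 as VIM and ZEB1, and CTSD lies in a lowered stretch of chromosome 11.

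**Figure D3:**
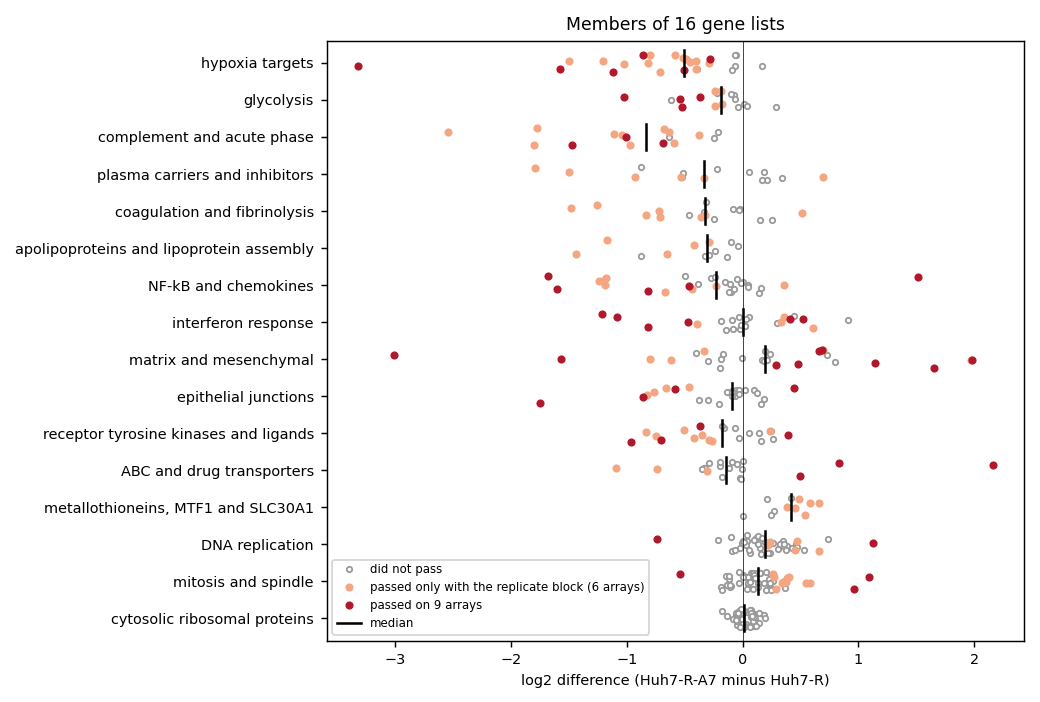
Differences between Huh7-R-A7 and Huh7-R (log2, x axis) for the members of 16 gene lists (rows), with dark points for genes that passed on 9 arrays, light points for those that passed only with the replicate block, open points for the rest and a bar for the median. Hypoxia and complement lists lie mostly left of 0, with medians of −0.51 and −0.83, and ribosomal proteins lie at 0.01.

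Among ABC and drug transporters, which carry drugs and lipids across membranes, 3 of 20 were higher and 0 lower (3 and 3 when paired), while the median was −0.15. After ABCC2 the riser was ABCG2, an exporter of many kinase inhibitors, at 6.34, 6.34 and 6.27 in Huh7-R-A7, against 5.53, 5.43 and 5.5 in Huh7-R and 7.38, 7.61 and 7.5 in Huh7-S (at least 1.25-fold higher, adjusted p = 0.000437). The clone was thus between pool and sensitive cells. The aminophospholipid flippase ATP8B1 rose by 0.49. ABCB1, the multidrug exporter P-glycoprotein, was near the noise limit and overlapped between groups (−0.12, adjusted p = 0.748), and ABCC1 differed by −0.2 (adjusted p = 0.104).

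Of 16 genes listed by name for their links to sorafenib resistance, 4 were higher and 0 lower on 9 arrays, and 4 and 1 in the paired fit, on the 6 resistant arrays alone and without Huh7-S array 1. The lower one when paired was the adhesion receptor ICAM1, at 11.27 on each clone array against 11.79, 11.7 and 11.64 in Huh7-R (log2 difference −0.43, paired adjusted p = 0.0181). Beside ABCC2 and ABCG2 these were the transcription factor ETS1, at 7.87, 7.58 and 7.43 in Huh7-R-A7 against 7.09, 6.9 and 6.9 in Huh7-R, and the hepatocyte growth factor receptor MET, at 11.86, 11.75 and 11.8 against 11.41, 11.42 and 11.41 in Huh7-R (adjusted p = 0.0153 and 0.00791). The receptor kinase AXL, the growth factor receptor EGFR, the SRC-family kinases LYN, YES1 and FRK, and the hyaluronan receptor CD44 overlapped between groups, with differences of −0.11 to 0.13. AXL averaged 10.18 ± 0.485 in Huh7-R-A7 and 10.12 ± 0.468 in Huh7-R (SD, n = 3 each), and the SE of the difference was 0.32. Other receptor kinases and ligands had 1 of 21 higher and 3 lower (2 and 10 when paired, and 1 and 6 without Huh7-S array 1), with the fibroblast growth factor receptors FGFR3 and FGFR4 at −0.97 and −0.7. The lower share was 47.6% when paired and 28.6% without that array, against 9.66% and 7.4% of all genes.

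In drug and lipid metabolism, CYP2B6, a hepatic cytochrome P450, read 7.99, 8.9 and 8.84 in Huh7-R-A7, against 6.99 on each Huh7-R array (3.01-fold higher, adjusted p = 0.0047). CYP1B1, which oxidises oestrogens and polycyclic compounds, rose by 0.78. ACLY, which makes cytosolic acetyl-CoA for fatty acid synthesis, read 13.78, 13.86 and 13.73 in Huh7-R-A7, against 12.27, 12.47 and 12.33 in Huh7-R and 13.4 to 13.5 in Huh7-S (2.7-fold higher, adjusted p = 4.65e-05). Its pool level was below both other groups. CPT1A, which admits fatty acids to mitochondria for oxidation, read 8.6, 8.78 and 8.78 in Huh7-R-A7, against 9.96, 9.97 and 9.71 in Huh7-R (2.23-fold lower, adjusted p = 0.00864), and the desaturase SCD fell by 0.9. The retinaldehyde dehydrogenase ALDH1A1 read 14.03, 14.53 and 14.75 in Huh7-R-A7, against 15.84, 15.97 and 15.95 in Huh7-R (2.79-fold lower, adjusted p = 0.00219), and AOX1, an aldehyde oxidase, rose by 1.12.

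In the antioxidant list 2 of 27 NRF2 targets were higher and 5 were lower on 9 arrays, 2 and 8 when paired, and 2 and 2 without the arrays numbered 1. ABCC2 was among the 2 higher on 9 arrays and is counted in the transporter and resistance lists as well. The NRF2 gene NFE2L2 and thioredoxin, TXN, fell by 0.64 and 0.69, while the cystine transporter SLC7A11 rose by 0.76. SLC7A11 did not pass in the paired fit (adjusted p = 0.0677). NFE2L2, TXN and SLC7A11 lie in shifted stretches of chromosomes 2, 9 and 4, described below.

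Cell division genes showed few calls on 9 arrays and more rises when paired. On 9 arrays 2 of 54 mitosis genes were higher and 1 was lower, and 1 of 43 replication genes moved each way. The paired fit gave 12 higher mitosis genes (22.2%) and 1 lower, and 6 higher replication genes (14%) and 1 lower, against 8.97% higher over all genes. Without the arrays numbered 1, 4 mitosis genes were higher and 1 was lower, and 7 replication genes were higher (16.3%, against 4.1% of all genes) and 0 were lower. The medians were 0.13 and 0.2. CDC25B, a phosphatase that starts mitosis, rose by 1.09, the centriole kinase PLK4 by 0.96 and the replication initiator MCM10 by 1.13, while the helicase subunit MCM6 fell by 0.74. CDC25B, PLK4 and MCM10 all lie in raised stretches of chromosomes 20, 4 and 10, and MCM6 lies in a lowered stretch of chromosome 2. Of 47 cytosolic ribosomal protein genes 0 passed in either direction in either fit, with a median of 0.01.

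Of 160 microRNA genes 1 was higher and 2 were lower (2 and 7 when paired). These counts lay below the shares over all genes, which were 4.11% and 4.52% on 9 arrays and 8.97% and 9.66% when paired. The array reads the transcript of the gene and not the mature strand alone. MIR21, whose product represses tumour suppressor transcripts, read 6.91, 7.13 and 6.85 in Huh7-R-A7, against 7.88, 7.52 and 7.52 in Huh7-R and 5.97 to 6.38 in Huh7-S (log2 difference −0.68, adjusted p = 0.0267). MIR4521 fell by 1.36, to 8.91, 9.25 and 9.74 in Huh7-R-A7 against 10.49, 10.87 and 10.61 in Huh7-R, and MIR3198-1 rose by 0.75. The mature strands that RefSeq lists for these 3 genes are shown with the seed, bases 2 to 8, in capitals, because a strand finds its targets through that stretch.
hsa-miR-21-5p: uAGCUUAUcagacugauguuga
hsa-miR-4521: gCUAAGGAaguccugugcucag
hsa-miR-3198: gUGGAGUCcuggggaauggaga
No 2 of the 3 share a seed. In none of the 3 genes did the clone and pool arrays overlap.

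Position along the chromosomes grouped many of the smaller changes. The 9739 genes with a chromosome that fitted their probe set name were put in order, and the median difference was taken over each run of 20 neighbouring genes, called a window. Of 9298 windows 518 (5.57%) lay at least 0.3 from the median of all genes, 244 above it and 274 below it. Joined where they overlapped, they formed 14 stretches on 10 chromosomes, 8 raised and 6 lowered in Huh7-R-A7. Raised stretches held 4.51% of placed genes and 159 of the 402 higher genes (39.6%). Lowered stretches held 4.67% of placed genes and 169 of the 441 placed lower genes (38.3%). Stretches were found from the same differences, so these shares are a description. Most of the large changes lay elsewhere, since 24 of the 105 placed genes that passed with a change of at least 2-fold were in a stretch of their direction.

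To measure the stretches on arrays that had not chosen them, they were found again from 2 replicate numbers and read in the third. All 19, 14 and 14 stretches found this way had the same direction in the number left out, and 8, 7 and 10 of them were past 0.3 there. Every pair of same-numbered arrays thus showed these runs in the same direction. All pairs are of the same clone and pool, so this reading repeats the measurement and not the picking of a clone.

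Chromosome 9 was the most lowered. Of its 386 genes 79 were lower (20.5%) and 5 were higher (1.3%). From SLC25A51 to CDC26, 118 of 133 genes were below 0, with a median of −0.36, pair medians of −0.35, −0.36 and −0.38, and 57 lower and 0 higher calls. From MLLT3 to RPL36AP33, 31 of 38 genes were below 0, with a median of −0.3, 15 lower calls and 1 higher call. The longer stretch, from SLC25A51 to CDC26, held DAPK1, ALDH1A1 and TMEM245 (−1.23). The shorter one held the galactosyltransferase B4GALT1 (−1.24), the ubiquitin-conjugating enzyme UBE2R2 (−1.12), ACO1, the cytosolic iron-regulatory aconitase (−0.99), and RIGI. On the longer stretch the median against Huh7-S was −0.46 for Huh7-R-A7 and −0.06 for Huh7-R, so the clone was the group farther from the sensitive cells.

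Chromosome 10 was the most raised, with 51 of 391 genes higher (13%) and 5 lower (1.28%). From GTPBP4 to NAMPTP1, 81 of 94 genes were above 0, with a median of 0.39, pair medians of 0.36, 0.37 and 0.42, and 46 higher and 0 lower calls. STAM, an adaptor of endosomal sorting, read 14.11, 13.8 and 13.86 in Huh7-R-A7, against 12.46, 12.31 and 12.39 in Huh7-R (2.9-fold higher, adjusted p = 0.000116). VIM, ZEB1 and the integrin chain ITGB1 (0.41) lie in this stretch as well. Here too the clone was farther from Huh7-S, with a median of 0.46, against 0.08 for Huh7-R.

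Chromosome 2 carried both directions, with 78 of 665 genes higher (11.7%) and 67 lower (10.1%). From WDR35 to ZFP36L2 the median was 0.33, with 81 of 90 genes above 0 and 31 higher calls. SOS1, the exchange factor that loads RAS with GTP, read 13.38, 12.97 and 13.07 in Huh7-R-A7, against 11.69, 11.69 and 11.7 in Huh7-R and 10.28 to 10.36 in Huh7-S (2.73-fold higher, adjusted p = 0.00024), and CYP1B1 lies there too. From CKAP2L to DNAJC10 the median was −0.34, with 127 of 150 genes below 0, 55 lower and 4 higher calls. PDK1 lies in this lowered part, with DPP4, a surface peptidase (−1.05, paired adjusted p = 0.0107). A short raised stretch of 21 genes from SESTD1 to ANKAR overlapped its end, with a median of 0.3 and 4 higher calls.

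In other stretches the pool was farther from the sensitive cells. From ANXA5 to FHDC1 on chromosome 4 the median was 0.42 over 62 genes, the highest of the 14, and against Huh7-S it was −0.06 for Huh7-R-A7 and −0.39 for Huh7-R. USP38, a deubiquitinase, read 10.4, 10.46 and 10.3 in Huh7-R-A7, against 9.08, 9.14 and 9.05 in Huh7-R (2.45-fold higher, adjusted p = 2.4e-05). The ribosome recycling factor ABCE1, TMEM184C and ZNF330 rose there by 1.36, 1.37 and 1.59. On chromosome 14, from GLRX5 to MTA1, the median was 0.3, with −0.06 against Huh7-S for Huh7-R-A7 and −0.54 for Huh7-R. On chromosome 20, from TRIB3 to XRN2, these values were 0.3, −0.01 and −0.21. In those 2 stretches lie AKT1 and HSP90AA1, at 0.46 and 0.64, and the prion protein gene PRNP, at 1.28.

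On chromosome 11 the pool was above both other groups. From SIRT3 to NUP98 and from ARFIP2 to RNA5SP336 the medians were −0.24 and −0.28, and against Huh7-S they were 0.01 and 0.01 for Huh7-R-A7 and 0.23 and 0.25 for Huh7-R. On chromosome 19, from AP1M1 to SUGP2, all 37 genes were below 0, with a median of −0.29 and 7 lower calls, among them the shear-responsive factor KLF2 (−1.5). Huh7-R-A7 lay 0.03 below Huh7-S there and Huh7-R lay 0.26 above. The last raised stretch with calls, on chromosome 7 from ZNF680 to POM121, had a median of 0.36 over 28 genes and 9 higher calls, with clone array 2 at 0.06 against 0.29 and 0.28 for the other clone arrays.

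**Figure D4:**
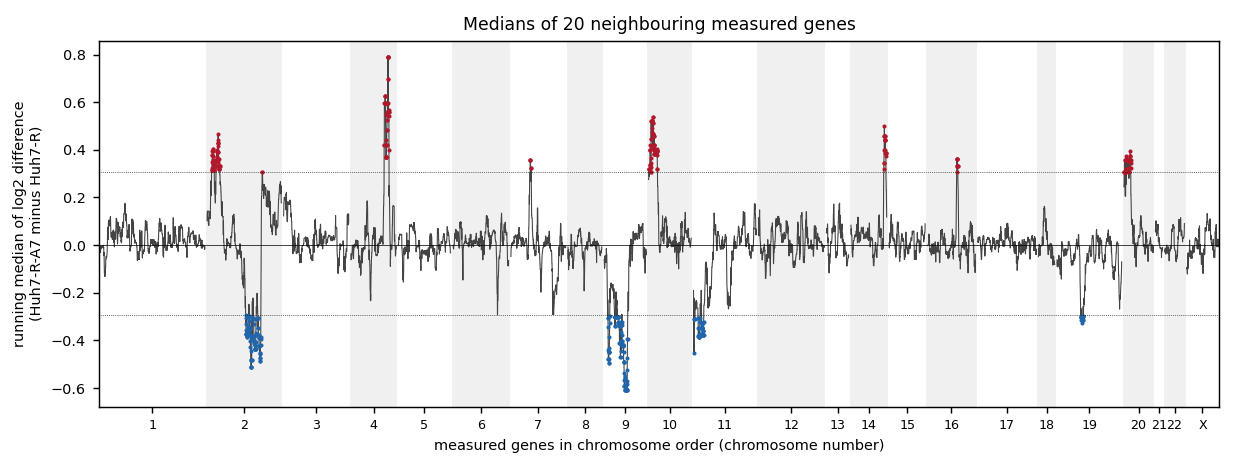
Median difference between Huh7-R-A7 and Huh7-R (log2, y axis) over windows of 20 neighbouring measured genes, in gene order along chromosomes 1 to 22 and X (x axis, shaded in turn), with coloured points for windows at least 0.3 from the median of all genes. Raised runs stand out on chromosomes 2, 4, 7, 10, 14, 16 and 20 and lowered runs on chromosomes 2, 9, 11 and 19.

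**Figure D5:**
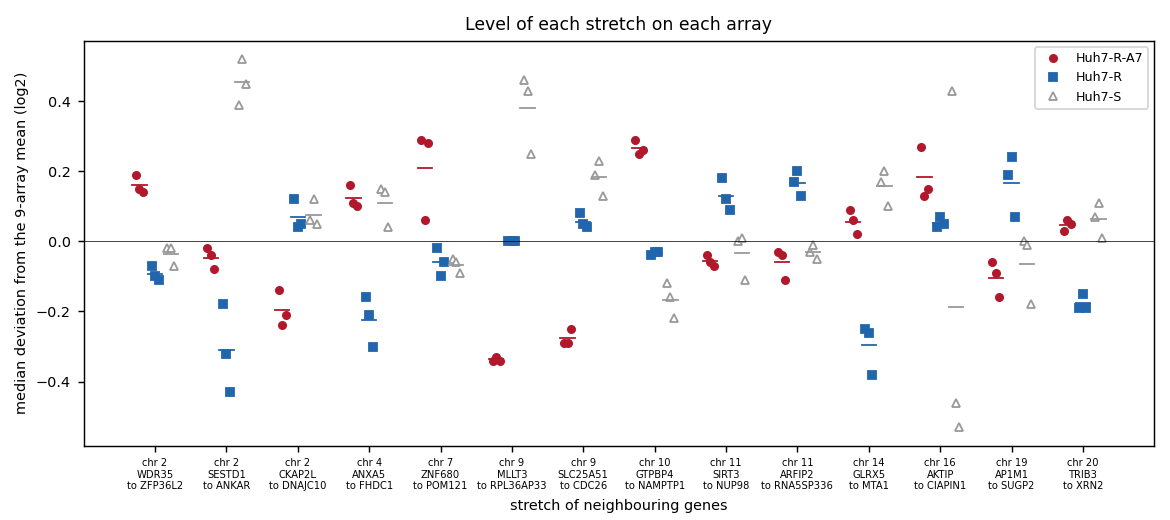
Level of each of the 14 stretches on each array (y axis, median over its genes of the deviation from the 9-array mean, log2), with Huh7-R-A7, Huh7-R and Huh7-S from left to right within a stretch and bars for group means. Clone and pool arrays are apart in each stretch, while Huh7-S lies near the pool on chromosome 10 and near the clone on chromosomes 4 and 20.

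The raised stretch of chromosome 16, from AKTIP to CIAPIN1, differed from the rest. It held 14 genes of the metallothionein family, small cysteine-rich proteins that bind zinc and copper, of which 4 are annotated as pseudogenes. None of its 29 genes passed on 9 arrays, and its median was 0.24. The 14 differed by 0 to 0.66, and 6 of them passed as higher when paired and 0 as lower. The list used in the plot of gene lists had 9 of these genes beside MTF1 and SLC30A1, a zinc-sensing factor and a zinc exporter. Its median was 0.42, with 0 calls on 9 arrays, 5 higher on the 6 resistant arrays alone or without Huh7-S array 1, and 0 without the arrays numbered 1. MT1X read 9.81, 10.14 and 10.09 in Huh7-R-A7, against 9.17, 9.47 and 9.41 in Huh7-R and 11.29, 7.56 and 7.37 in Huh7-S. All clone arrays were above all pool arrays, and Huh7-S array 1 was above both groups (log2 difference 0.66, adjusted p = 0.737, paired 0.0104). Metallothionein genes are close copies of each other, so probes may read more than 1 of them.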

How the data were processed

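Total RNA of 9 samples was hybridised to Affymetrix GeneChip Human Transcriptome Array 2.0. Per the labels and the study's methods, the authors normalized the arrays by RMA in Affymetrix Expression Console and deposited log2 signal values. Neither a program version nor a genome build is named in the sources used here, so probe sets were placed only by chromosome and order. Of 11013 probe sets, 9851 had 1 symbol in the platform annotation, 624 had several and 538 had none, 77 symbols were updated through RefSeq, and the probe sets of 67 genes were averaged, giving 9784 genes. Array medians lay between 8.22 and 8.38. Arrays give no counts, and 3 per group limit the precision.

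Clone and pool were compared with limma 3.58.1 in R 4.3.3 (lmFit and eBayes with an intensity trend, group as the only term, 9 arrays, 6 residual degrees of freedom), two-sided, with Benjamini-Hochberg adjustment over all genes at 0.05. The fit with replicate number as a block used the 6 resistant arrays and had 2 residual degrees of freedom. The labels name no shared day, and the pairing rests on the correlation of same-numbered arrays (0.5963, 0.4927 and 0.4181). Where a group mean was below log2 6, the noise limit of the methods, the fold is a bound, with arrays below 6 set to 6. Values above log2 16 occur in 121 probe sets. Exactly equal values on at least 2 arrays occur in 59.88% of genes and can make a fitted spread too small. Named genes were the 15 largest rises and falls that passed without overlap, up to 4 passing members of each of 52 lists, 16 fixed genes and the edges and 4 largest members of each stretch, with exceptions marked. The members and lists were chosen with earlier results of these data known. On simulated data from these 9784 genes, the 9-array fit recovered 42% of changes of 0.5 and 90% of changes of 1, and the block fit 8% and 70%. The simulated noise was independent between arrays, with no effect of replicate number for a block to remove. These shares therefore cannot rank the fits on the real arrays, where same-numbered arrays moved together. Tables and figures were made with Python 3.11.15, pandas 2.3.3 and matplotlib 3.10.9. Other scalings, filters, variance priors, probe set rules, window sizes and each array left out were tried.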

Additional observations from a re-analysis of the deposited data

Results flagged for a closer look

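The comparison of genes left out probe sets that list no symbol or several symbols. Of these 1162 probe sets, 88 passed between Huh7-R-A7 and Huh7-R (7.57%), 40 higher and 48 lower, when all probe sets were fitted together. They are a signal in data that the comparison did not use. Of the 88, 38 listed no symbol and 50 listed several. The largest falls among them were in probe sets listing the acute phase genes SAA2 and SAA1, each beside another symbol. The SAA2 probe set read 6.44, 6.91 and 7 in Huh7-R-A7, against 9.63, 9.87 and 9.96 in Huh7-R (log2 difference −3.04, adjusted p = 6.83e-05). For the SAA1 probe set the difference was −2.95 (adjusted p = 8.14e-05). The largest rise, of 2.29, was in a probe set with no symbol. No signal of the 88 was assigned to a single gene.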

How the results depend on the processing

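With replicate number as a block on the 6 resistant arrays, 878 genes were higher and 945 were lower, against 402 and 442 on 9 arrays, and 5 genes in place of 8 passed as higher at the methods' limits. The block on all 9 arrays gave 500 and 511. With each array also centred on its median, the paired counts were 1192 and 1265. In the 3925 genes with 9 different values, 162 were higher and 222 lower, 4 were higher at the methods' limits and 306 windows were shifted, from fewer genes tested. Quantile normalization gave 13 higher genes at the methods' limits, and the share of higher among all calls was 47.6%, 49.7% with arrays centred and 51.0% with quantile normalization. Leaving out 1 array gave 183 to 606 higher and 205 to 724 lower genes, 5 to 10 higher and 6 to 7 lower at the methods' limits, and 481 to 525 windows in place of 518. The counts fell to 183 and 210 without Huh7-R replicate 3, to 205 and 205 without Huh7-R replicate 2, to 218 and 234 without clone replicate 2, to 232 and 250 without clone replicate 3 and to 261 and 262 without clone replicate 1, and were 606 and 724 without Huh7-S replicate 1. Without both resistant arrays numbered 1, an alternative chosen after seeing the data like the centred block, they were 401 and 300. The cause was not tested for these shifts. Of 193 named genes 148 passed, 79 of them in every fit that held them, and none changed direction. The block ended the call of 6.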
